A study of Mus musculus with 2 samples.

Results

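The keratin genes were described in the accessible chromatin of newborn mouse kidney. They were taken as every protein-coding gene of GENCODE release M21 whose symbol is Krt followed directly by a number, which gave 53 of 21938 protein-coding genes and left out the keratin-associated Krtap genes. The data are DNase-seq peak lists from whole kidney of B6NCrl mice at 0 days of age, in 1 group of 2 biological replicates with no treatment, engineered allele or second tissue. The enzyme DNase I cuts DNA that is not wrapped in nucleosomes, and a peak is a place where many cuts gather, as at promoters and enhancers in use. Both replicates carry the same donor record in the labels and are not said to come from separate animals, so their spread may be technical, and sex was not collected.

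Keratins are the intermediate filament proteins of epithelial cells. An acidic type I keratin pairs with a basic type II keratin to build the filament, and in mammals most genes of each type lie side by side in a cluster of their own. Krt8 and Krt18 form the pair of simple epithelia, Krt7 and Krt19 are found in simple and ductal epithelia, Krt5 and Krt14 form the pair of basal keratinocytes and Krt1 and Krt10 that of the layers above them, while the hair keratins build the hair shaft and its root sheaths.

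The 53 genes fell into 4 simple-epithelium keratins (Krt7, Krt8, Krt18 and Krt19), 18 epidermal keratins, a group that here also holds keratins of other stratified epithelia such as Krt4, Krt12 and Krt13, 23 hair keratins and 8 others. In mm10 coordinates the type I cluster ran over chr11:99232761-100269871 with 27 of the genes, and the type II cluster over chr15:101347444-102032027 with 26. Krt18, a type I keratin by its protein, lies at the end of the type II cluster next to Krt8.

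Shown here are the promoter windows of 3 simple-epithelium keratins, of Krt20 and Krt10, which hold a TATA box, and of the basal keratin Krt5. These serve as examples of the windows searched for motifs below, and none is from a hair keratin. They are RefSeq windows of 300 bases in GRCm38.p6, from 250 bases before to 50 after a gene start, written 5′ to 3′ along the gene, and capitals mark TATAAA and GGGCGG on either strand, including matches that overlap. They cover chr15:102004293-102004592 on the minus strand for Krt8, chr15:102027966-102028265 on the plus strand for Krt18, chr15:101412153-101412452 on the plus strand for Krt7, chr11:99438104-99438403 on the minus strand for Krt20, chr11:99389315-99389614 on the minus strand for Krt10 and chr15:101712856-101713155 on the minus strand for Krt5. The Krt7 window is that of its second protein-coding start, inside the gene.
promoter Krt8: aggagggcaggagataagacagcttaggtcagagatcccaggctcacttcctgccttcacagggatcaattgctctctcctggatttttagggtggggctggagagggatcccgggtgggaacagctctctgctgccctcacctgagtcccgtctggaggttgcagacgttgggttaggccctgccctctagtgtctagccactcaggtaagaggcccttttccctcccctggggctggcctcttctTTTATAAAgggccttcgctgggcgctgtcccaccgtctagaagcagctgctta
promoter Krt18: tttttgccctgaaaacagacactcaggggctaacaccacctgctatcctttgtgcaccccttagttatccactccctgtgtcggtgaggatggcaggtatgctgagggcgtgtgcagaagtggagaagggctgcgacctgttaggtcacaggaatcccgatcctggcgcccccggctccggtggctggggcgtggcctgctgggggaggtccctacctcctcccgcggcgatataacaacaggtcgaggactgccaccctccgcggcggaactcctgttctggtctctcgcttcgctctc
promoter Krt7: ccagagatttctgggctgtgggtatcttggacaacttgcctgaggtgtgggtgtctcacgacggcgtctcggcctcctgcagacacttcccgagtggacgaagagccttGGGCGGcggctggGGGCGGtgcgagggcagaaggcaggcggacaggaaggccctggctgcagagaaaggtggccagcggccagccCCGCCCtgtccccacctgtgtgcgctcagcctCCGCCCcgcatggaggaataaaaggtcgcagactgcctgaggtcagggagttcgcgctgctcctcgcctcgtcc
promoter Krt20: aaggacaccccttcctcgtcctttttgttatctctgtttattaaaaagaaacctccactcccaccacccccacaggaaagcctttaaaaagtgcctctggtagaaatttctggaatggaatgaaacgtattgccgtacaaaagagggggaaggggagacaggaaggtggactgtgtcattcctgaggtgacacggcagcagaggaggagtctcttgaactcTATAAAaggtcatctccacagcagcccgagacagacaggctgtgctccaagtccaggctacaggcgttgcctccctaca
promoter Krt10: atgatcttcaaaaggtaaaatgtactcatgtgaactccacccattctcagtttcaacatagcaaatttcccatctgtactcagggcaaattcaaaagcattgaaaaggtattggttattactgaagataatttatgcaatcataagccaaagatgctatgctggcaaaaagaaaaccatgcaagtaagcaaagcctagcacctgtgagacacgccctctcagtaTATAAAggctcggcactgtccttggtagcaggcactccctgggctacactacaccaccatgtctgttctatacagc
promoter Krt5: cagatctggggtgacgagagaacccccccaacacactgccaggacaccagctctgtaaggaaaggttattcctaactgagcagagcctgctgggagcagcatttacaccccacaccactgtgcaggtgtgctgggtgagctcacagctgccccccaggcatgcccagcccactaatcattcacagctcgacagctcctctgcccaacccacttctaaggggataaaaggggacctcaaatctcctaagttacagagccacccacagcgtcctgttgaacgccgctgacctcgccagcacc

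Few keratin genes had an accessible promoter in newborn kidney, and the simple-epithelium keratins were the group in which every gene had one. A promoter peak, meaning a peak within 1 kb of any annotated transcription start site (TSS) of the gene, was present in both replicates at 15 of 53 keratin genes (28.3%), against 15743 of all 21938 protein-coding genes (71.8%). By replicate, 16 and 17 keratin genes had one, which was 31.1% ± 1.33 (SD, n = 2), beside 72.8% and 72.9% of all genes. The gap to all genes exceeded the replicates' spread, which measures how the 2 lists agree over the same genes and not how genes vary. All 4 simple-epithelium keratins had a promoter peak in both replicates, against 7 of the 41 epidermal and hair keratins (17.1%). The difference was 82.9 percentage points for peaks in both replicates, 80.5 points in replicate 1 and 78.0 in replicate 2 (SD 1.72). With 1 group of samples no test between keratin groups was made, since genes are not replicates. In whole tissue, fewer cells of a type and less access per cell cannot be told apart.

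**Figure D1:**
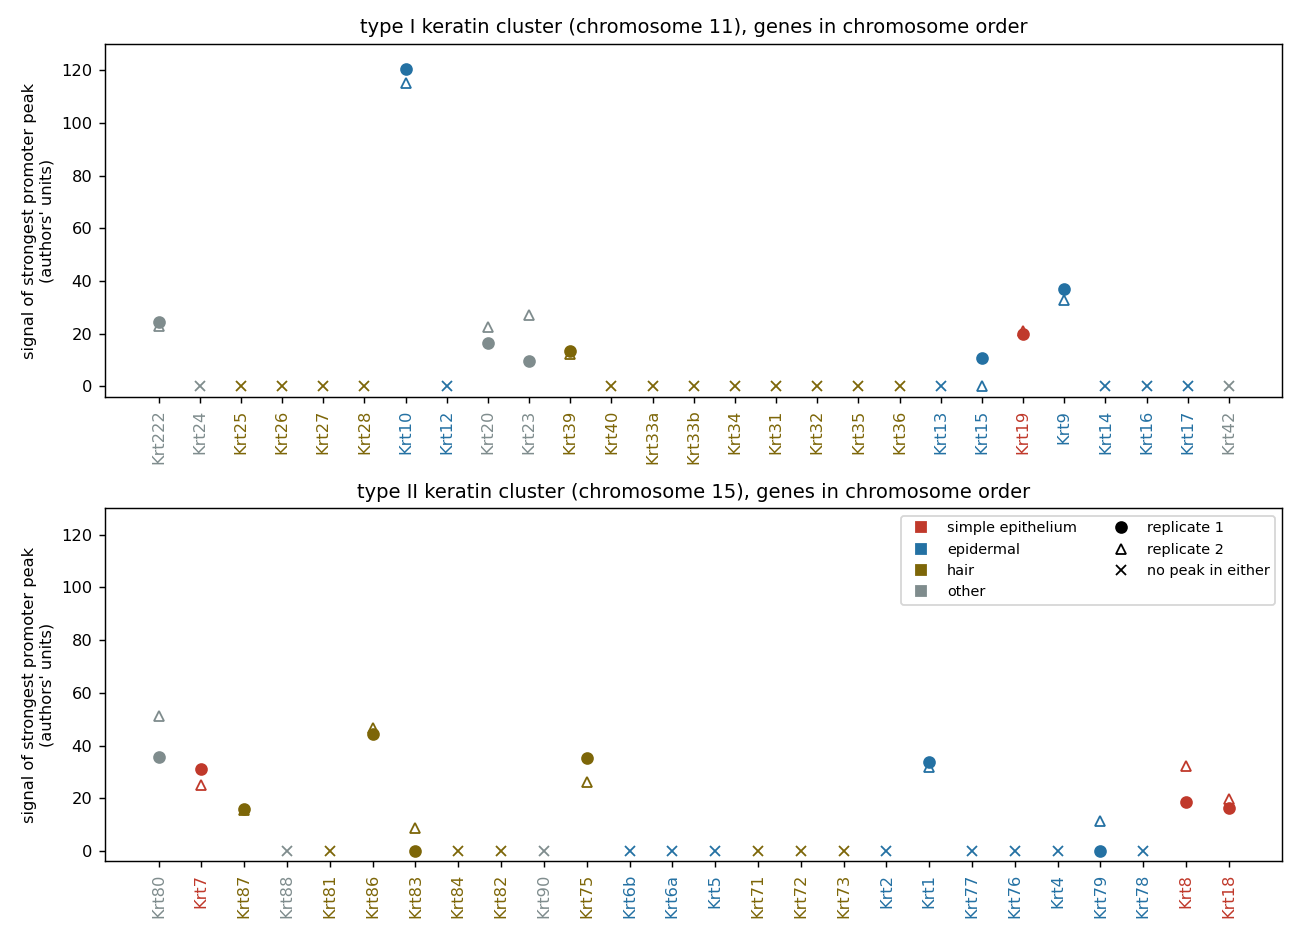
Signal of the strongest promoter peak (y axis, authors' units) of each keratin gene in chromosome order (x axis), for the type I cluster (top) and the type II cluster (bottom). Filled circles are replicate 1, open triangles replicate 2, crosses mark genes with no promoter peak in either replicate, and a symbol at 0 in a gene with 1 peak marks the replicate without one. Krt10 is the one keratin gene above 100, and long runs of hair and epidermal keratins have no peak.

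The 4 simple-epithelium keratins had promoter peaks below the median of all genes' promoter peaks within 1 kb of a start. Krt7, a type II keratin of ductal and transitional epithelium at chr15:101411043-101430313, had a strongest promoter signal of 31.3 in replicate 1 and 24.8 in replicate 2 (28.1 ± 4.54). Both replicates had a peak 107 bp upstream of its most 5′ protein-coding start, at 31.3 and 20.6, and another around the start inside the gene, at 25.1 and 24.8. The replicates thus shared both peaks and differed in which was the stronger. Krt8, the type II partner of Krt18 at chr15:101996698-102004482, had 18.6 in replicate 1 and 32.1 in replicate 2 (25.4 ± 9.52). Krt18, at chr15:102028180-102032027, had 16.3 and 19.8 (18.02 ± 2.47). Krt19, a type I keratin of ductal epithelium at chr11:100140810-100148665, had 19.9 and 21.2 (20.5 ± 0.917). Krt8 was above Krt18 in each replicate, but below Krt19 and Krt7 in replicate 1 and above both in replicate 2. The Krt8 replicates differed 1.72-fold, more than the gaps between the 4 genes' means. A difference as large, in either direction, was found at 0.508% of genes with a promoter peak in both replicates. Krt7 was above Krt19 and Krt19 above Krt18 in each replicate, an order that was not tested. With windows of 2 kb the Krt8 value was 61.8, that of a site in a Krt8 intron at chr15:102003021-102003190 with 58.95 in replicate 1 and 64.7 in replicate 2. With the most 5′ TSS of any transcript alone, the Krt19 value was 11.1, the mean of peaks that did not overlap. They were 10.9 at chr11:100149621-100149770 in replicate 1 and 11.3 at chr11:100147721-100147870 in replicate 2. Taken among the strongest promoter peaks of all protein-coding genes with one, the mean signals of the 4 genes within 1 kb stood between percentile 8.24 (Krt18) and percentile 15.2 (Krt7). The peaks of Krt8, Krt18 and Krt19 were centred from 4 to 106 bp downstream of their most 5′ protein-coding start.

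The general epithelium list, of which Krt8 and Krt18 are part, had promoter peaks in both replicates at 6 of 6 genes, the 2 highest mean signals being 40.1 ± 8.95 at Cdh1 (E-cadherin) and 36.4 ± 5.78 at Cldn7, a tight junction claudin. Over all protein-coding genes with a promoter peak, the median signal was 95.4 in replicate 1 and 104.6 in replicate 2.

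Of the 18 epidermal keratins, Krt10, Krt9 and Krt1 had a promoter peak in both replicates. Krt10, the type I keratin of the upper epidermal layers, had 120.5 in replicate 1 and 115.02 in replicate 2, the one keratin gene whose mean stood above the median of all promoter peaks. That peak was centred 3348 bp inside the gene, 81 bp from another annotated start, and its 150 bp lay wholly in coding exon. Krt10 had a second peak near that internal start, with 53.2 in replicate 1 and 53.03 in replicate 2. It was centred 2828 and 2788 bp inside the gene. Krt1, the type II partner of Krt10, had 33.8 and 32.02 at 4618 and 4638 bp inside the gene, also wholly in coding exon. When only the most 5′ start of each gene was used, both genes lost their promoter peak, and 13 of the 53 keratin genes kept one in both replicates. Krt9, the type I keratin of palm and sole skin, had 37.1 and 32.8 (34.96 ± 3.06), centred 90 and 110 bp downstream of its start. Of its peaks, 82.0% and 95.3% of the bases were coding.

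The strongest peaks inside Krt10 and Krt1 are shown because they fall in a repeated coding sequence. Both are written 5′ to 3′ on the plus strand, opposite to the genes, and capitals mark GCCGCC or its reverse complement, overlapping matches included. The Krt10 site covers chr11:99385941-99386090 and the Krt1 site chr15:101846081-101846250.
inside Krt10: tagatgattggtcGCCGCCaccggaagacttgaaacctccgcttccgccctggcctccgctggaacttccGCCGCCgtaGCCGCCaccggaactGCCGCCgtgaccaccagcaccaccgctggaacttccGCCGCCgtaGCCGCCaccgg
inside Krt1: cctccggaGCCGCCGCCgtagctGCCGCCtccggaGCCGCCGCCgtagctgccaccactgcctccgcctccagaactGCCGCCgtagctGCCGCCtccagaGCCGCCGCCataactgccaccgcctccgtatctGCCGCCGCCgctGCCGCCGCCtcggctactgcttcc

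Krt1 and Krt10 are known for glycine-rich end domains, and GGC is a glycine codon, although the reading frame of these stretches was not examined. The Krt10 peak held 6 matches of GCCGCC in each replicate, and 0.382% of other genes' strongest promoter peaks in replicate 1 and 0.419% in replicate 2 held as many. The Krt1 peak of each replicate held 11 matches, fewer than the printed site, which joins the peaks of both replicates. As many were held by the peaks of 2 other genes in replicate 1 and of 1 in replicate 2. GC content was 68.7% in the Krt10 peak and 74.0% and 75.3% in the Krt1 peak, above 71.0% and 70.1% of other genes' peaks for Krt10 and above 88.1% and 90.2% for Krt1. Among keratin genes with a promoter peak, the peak's centre lay in coding exon at 4 of 16 in replicate 1 and 3 of 17 in replicate 2, against 3.72% and 3.66% of other genes. Of the 36-base stretches in the Krt10 site, 94.8% occur once in the genome, and in the Krt1 site 100%. The other keratin peaks centred in coding exon had lower GC content, 60.7% and 62.0% at Krt9 and 54.7% at Krt15 in replicate 1, and the Krt18 peak at its start had 69.3% and 64%. The part of base composition in the signal at Krt10 and Krt1 was not tested.

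**Figure D2:**
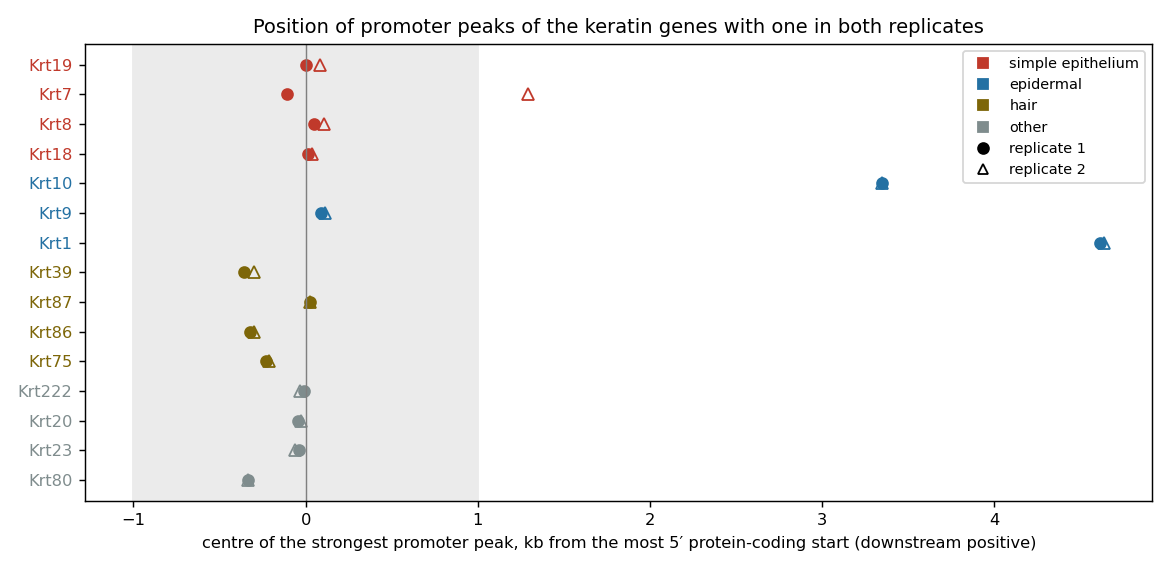
Centre of the strongest promoter peak of the 15 keratin genes with one in both replicates (rows), in kb from the most 5′ protein-coding start of the gene (x axis, downstream positive). Filled circles are replicate 1, open triangles replicate 2, and the grey band is 1 kb to each side of that start. Krt10 and Krt1 lie more than 3 kb inside the gene in both replicates. The strongest Krt7 peak lies at a different start in each replicate, although both replicates had a peak at both starts.

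The other epidermal keratins had no promoter peak in both replicates. Krt15, a type I keratin of basal cells, had a peak of 11.0 in replicate 1 alone, 2432 bp inside the gene and 902 bp from the nearest annotated start, so it sat just inside the 1 kb limit. Krt79 had one of 11.3 in replicate 2 alone, 9668 bp inside. No promoter peak was found in either replicate for Krt2, Krt4, Krt5, Krt6a, Krt6b, Krt12, Krt13, Krt14, Krt16, Krt17, Krt76, Krt77 and Krt78. With windows of 2 kb, Krt5, Krt15, Krt35 and Krt79 also had a peak in both replicates. The Krt15 and Krt35 sites nearest beyond the limit lay 1268 and 1825 bp from a start of those genes. The basal pair Krt5 and Krt14 thus had none within 1 kb of any start, and neither had the wound keratins Krt6a, Krt6b, Krt16 and Krt17.

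Of the 23 hair keratins, Krt86, Krt75, Krt87 and Krt39 had a promoter peak in both replicates. Krt86, a type II keratin of the hair shaft, had 44.4 in replicate 1 and 46.5 in replicate 2 (45.5 ± 1.49), the highest of the hair keratins. Krt75, of the companion layer of the follicle, had 35.1 and 26.02 (30.6 ± 6.45), Krt87 had 16.1 and 15.6 (15.8 ± 0.343), and Krt39 had 13.4 and 12.4 (12.9 ± 0.674). The Krt86, Krt75 and Krt39 peaks were centred upstream of the start, and that of Krt87 28 bp downstream. Krt83 had a peak of 8.73 in replicate 2 alone. Krt25, Krt26, Krt27, Krt28, Krt31, Krt32, Krt33a, Krt33b, Krt34, Krt35, Krt36, Krt40, Krt71, Krt72, Krt73, Krt81, Krt82 and Krt84 had none in either. In the type I cluster every hair keratin other than Krt39 was thus without a promoter peak.

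Of the 8 remaining keratins, 4 had a promoter peak in both replicates. Krt80 had 35.6 in replicate 1 and 51.4 in replicate 2 (43.5 ± 11.2), Krt222 had 24.5 and 22.8 (23.6 ± 1.18), and Krt20, a type I keratin of intestinal and umbrella-cell epithelium, had 16.3 and 22.6 (19.5 ± 4.44). Krt23 had 9.69 and 27.3 (18.5 ± 12.5), a 2.82-fold difference between replicates, and 7 of the 15743 genes with a promoter peak in both (0.0445%), Krt23 among them, had one as large in either direction. The replicates placed the Krt23 peak 39 and 59 bp upstream of its start. Krt24, Krt42, Krt88 and Krt90 had none in either.

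The share of genes with an accessible promoter was low in both clusters. It was 8 of 26 genes in the type II cluster (30.8%) and 7 of 27 in the type I cluster (25.9%), against 81.3% of other chromosome 15 genes and 80.5% of other chromosome 11 genes. By replicate, the type II cluster had 34.6% ± 5.44 and the type I cluster 27.8% ± 2.62 (SD, n = 2). For the epidermal and hair keratins alone it was 4 of 20 in type II and 3 of 21 in type I. These shares differ by 1 gene, and the single-replicate genes Krt15, Krt83 and Krt79 alone move them by as much.

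**Figure D3:**
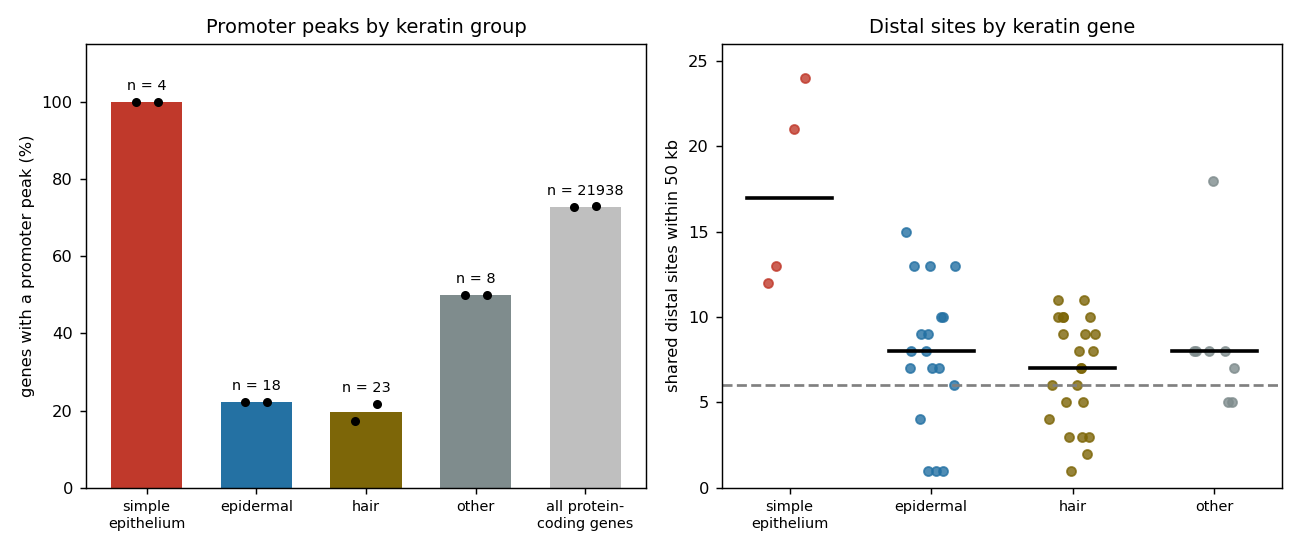
Left, share of genes with a promoter peak (bars, mean of 2 replicates; dots, each replicate) in each keratin group and in all protein-coding genes, with the number of genes above each bar. Right, shared distal sites within 50 kb of each keratin gene (dots), with the group median (line) and the median of 6 over all protein-coding genes (dashed line); simple-epithelium keratins are highest in both panels.

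Keratin promoters were poor in CpG. The median CpG observed over expected within 500 bp of the most 5′ TSS was 0.302 for the 53 genes, against 0.552 for all protein-coding genes, and none of the 53 fell in the upper 2 of 5 CpG quintiles. In the second lowest quintile, both replicates had a promoter peak at 9 of 36 keratin genes (25%), against 53.3% of other genes. In the middle quintile it was 5 of 13 (38.5%), against 89.8%, and in the lowest 1 of 4 (25%), against 19.2%. Krt7 had the lowest value of the simple-epithelium keratins at 0.0779, and Krt18 the highest at 0.546. For Krt7, the 1 keratin gene with a peak in the lowest quintile, the 500 bp did not reach the printed promoter window. At Krt19 they did not reach the start at its strongest promoter peak. The values of Krt7 and Krt19 therefore describe the most 5′ TSS alone. A quintile holds genes of many tissues, so this comparison takes CpG content alone into account.

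A TATA box was frequent among keratin genes and was carried mostly by hair keratins. RefSeq windows were found for 36 of the 53 genes, Krt13 with a pair of windows, which gave 37 windows. The letters TATAAA stood between 40 and 20 bases upstream of the start in 13 of the 37 (35.1%), against 1.99% of all 32851 windows. Of these 13, 9 were among the 17 hair windows, 3 among the 12 epidermal windows (Krt10, Krt12 and Krt76), none among the 3 simple windows and 1, Krt20, among the 5 others. On either strand anywhere in the window, TATAAA was present in 19 of 37 (51.4%), against 13.6% of all windows. Krt8 had it there, across the RefSeq start itself and so outside the 40 to 20 base stretch. That start lies downstream of the GENCODE start of Krt8, and counts by position depend on the start used. The GC box GGGCGG stood in 2 of 37 windows on either strand (5.41%), those of Krt7 and Krt75, against 35.7% of all windows. GCCNNNGGC, a TFAP2 consensus whose matches may overlap GGGCGG, stood in 7 of 37 (18.9%, against 16.6%), CCAAT in 15 of 37 (40.5%, against 37.4%), and the AP-1 consensus TGANTCA in 2 of 37 (5.41%, against 7.81%), both of them Krt13. A match describes these letters only and is no site of binding.

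Distal sites, meaning sites with a peak in both replicates and no TSS within 1 kb, were densest around Krt8 and Krt18. Within 50 kb of their most 5′ TSS, Krt8 had 24 such sites, Krt18 had 21, Krt7 had 13 and Krt19 had 12. The median was 17 for simple-epithelium keratins, against 8 for epidermal keratins, 7 for hair keratins and 6 for all protein-coding genes. Of all protein-coding genes, 2.19% had at least 24 such sites. The difference in median between simple-epithelium and pooled epidermal and hair keratins was 9, and with the peaks of 1 replicate alone it was 12.5 (replicate 1) and 17 (replicate 2). Krt8 and Krt18 are neighbours whose windows shared 19 of their 26 sites, so they do not count as separate genes in this comparison. Outside the group, the highest counts were 18 for Krt80, 15 for Krt79 and 13 each for Krt13, Krt15 and Krt78. Krt79 and Krt78 share sites with Krt8, Krt13 and Krt15 with Krt19. The lowest count was 1, at Krt5, Krt6a, Krt6b and Krt39.

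A choice of 4 distal sites is shown, the strongest near Krt8 and Krt18, the third strongest inside the type II cluster, the strongest inside the type I cluster and the strongest near Krt19, because they lie over 1 kb from any TSS. The first lies at chr15:101984361-101984510 between Krt78 and Krt8, the second at chr15:101977461-101977610 in the same interval, the third at chr11:100203561-100203730 in an intron of Krt14 and the fourth at chr11:100169101-100169270 between Krt19 and Krt9. They are written 5′ to 3′ on the plus strand. Capitals mark matches found on either strand in the central 150 bp, where matches of different motifs may overlap. The AP-1 consensus was searched as TGANTCA and that of SP and KLF factors as GGGCGG. For TFAP2 the letters were GCCNNNGGC, and for GRHL factors they were AACCGGTT. The TEAD consensus was written GGAATG, whereas ETS factors were searched as CCGGAAG. The letters of the GATA consensus were AGATAA. The CTCF and HNF1 consensus sequences were searched as well. Of these, the first printed site held SP/KLF and TEAD matches, the second AP-1 and SP/KLF matches, and the other pair none.
Krt78 to Krt8 first site: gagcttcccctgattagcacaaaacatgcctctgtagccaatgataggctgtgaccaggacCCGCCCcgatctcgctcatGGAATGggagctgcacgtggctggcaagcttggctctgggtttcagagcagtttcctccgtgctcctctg
Krt78 to Krt8 second site: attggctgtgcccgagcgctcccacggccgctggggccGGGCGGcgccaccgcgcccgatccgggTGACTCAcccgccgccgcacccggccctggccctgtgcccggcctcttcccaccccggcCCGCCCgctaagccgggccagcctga
Krt14 intron site: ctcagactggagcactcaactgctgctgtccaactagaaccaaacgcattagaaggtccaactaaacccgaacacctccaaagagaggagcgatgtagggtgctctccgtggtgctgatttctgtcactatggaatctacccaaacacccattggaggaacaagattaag
Krt19 to Krt9 site: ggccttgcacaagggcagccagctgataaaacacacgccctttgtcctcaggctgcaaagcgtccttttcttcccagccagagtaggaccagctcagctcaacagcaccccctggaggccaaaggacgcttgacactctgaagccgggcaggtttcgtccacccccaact

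The site 20046 bp downstream of the Krt8 start, upstream of Krt18 as well, was the strongest distal site near any keratin gene, with 178 in replicate 1 and 188 in replicate 2 (183 ± 7.03). It stood at percentile 99.9 of all 151068 shared distal sites. Its signal exceeded the promoter signals of Krt8 and Krt18 in both replicates. The next in the type II cluster lay 30606 bp downstream of the Krt8 start at chr15:101973801-101973950, with 109.6 and 120.4 (115.03 ± 7.65), followed inside the cluster by the second printed site 26946 bp downstream, with 84.4 and 94.3 (89.4 ± 6.99). All 3 lay in the interval between Krt78 and Krt8. Beyond the end of the cluster, a site at chr15:102065761-102065930 near Eif4b and within 50 kb of Krt18 had 142.03 and 159.3 (150.7 ± 12.2). The strongest site within 50 kb of Krt7, at chr15:101453441-101453590 in an exon of Krt88 and 42473 bp downstream, had 33.1 and 42.2 (37.7 ± 6.44).

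In the type I cluster the strongest distal site was the one in the Krt14 intron, with 79.2 in replicate 1 and 73.6 in replicate 2 (76.4 ± 3.92), 2384 bp from the nearest Krt14 start, although Krt14 itself had no promoter peak. The next pair lay between Krt20 and Krt23, at chr11:99463261-99463430 with 56.3 and 66.2 (61.2 ± 6.96) and chr11:99464921-99465070 with 51.1 and 58.0 (54.5 ± 4.87). The strongest near Krt19 had 45.4 and 58.0 (51.7 ± 8.85) and lay 20521 bp upstream of it. All printed distal sites consist of 36-base stretches that occur once in the genome.

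Over the 127 distal sites within 50 kb of keratin genes, median signal was 21.9 in replicate 1 and 22.8 in replicate 2, against 19.8 and 18.6 over all shared distal sites. The SP/KLF consensus stood in 12 of the 127 (9.45%), against 5.60% of all shared distal sites. Of the 26 sites near Krt8 or Krt18, 7 held TEAD, 5 SP/KLF and 3 AP-1 matches. CTCF and GATA stood in 1 each of these 26, and the other motifs in none. Of the 61 sites near epidermal or hair but not simple-epithelium keratins, 7 held CTCF, 6 TEAD and 5 SP/KLF matches. In these 61, AP-1 stood in 4, TFAP2 in 3 and GATA in 1. AP-1 matches stood in 13 of 127 (10.2%, against 6.90%), CTCF in 8 (6.30%, against 3.89%), TEAD in 18 (14.2%, against 13.0%) and GATA in 4 (3.15%, against 6.97%). TFAP2 stood in 7 (5.51%, against 4.47%), ETS in 1 (0.787%, against 1.52%), and GRHL and HNF1 in none, against 0.0755% and 0.0179%. These counts are small and are given as a description.

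The clusters differed in how densely shared sites lay. The type II cluster held 78 shared sites, or 113.9 per Mb, and the type I cluster 56, or 54.0 per Mb, against 79.2 per Mb on chromosome 15, 110.2 on chromosome 11 and 79.0 over the autosomes. Relative to the autosomes this was 1.44 for type II and 0.683 for type I. With the peaks of each replicate alone it was 1.32 and 1.58 for type II and 0.652 and 0.647 for type I. The clusters thus differed by more than the spread between replicates, which again measures only how the 2 lists agree.

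Within the type I cluster the lowest density was in the 468.0 kb gap between Krt40 and Krt33a that holds the Krtap genes, with 14.96 shared sites per Mb. Before the gap the density was 90.2 per Mb and after it 81.2. Of the 23 Krtap genes in the gap, both replicates had a promoter peak at 2 (Krtap16-1 and Krtap17-1). At Krtap17-1 the peaks of the replicates, with 17.6 and 10.5, did not overlap and so formed no shared site. The longest stretches without a shared site in this cluster, of 169.7 and 131.5 kb, held no keratin gene start. In the gap 82.1% of 36-base stretches occur once in the genome, against 88.9% over the whole type I cluster and 92.2% over type II, and the part of unmappable sequence in the low density was not tested.

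In the type II cluster, the segments were drawn after the map had been seen. From Krt78 to Krt18 the density was 283.0 per Mb, and between the Krt8 and Krt18 starts it was 379.8. From Krt80 to Krt75 it was 163.4, from Krt2 to Krt78 76.6 and from Krt75 to Krt2 33.8. The last of these holds Krt6a, Krt6b, Krt5, Krt71, Krt72 and Krt73, and a stretch of 106.0 kb without any shared site that includes the start of Krt6b. Of its 36-base stretches, 86.6% occur once in the genome. Over the promoter windows of the keratin genes the median share of such unique stretches was 97.7%, against 99.0% for every 20th other gene, and the lowest was 67.2% at Krt6b. Krt6a, Krt16 and Krt81, which also had no promoter peak, stood at 67.7%, 68.9% and 69.5%. Krt86, which had a promoter peak in both replicates, stood at 74.4%. The part of repeated sequence in the absence of peaks at Krt6a, Krt6b, Krt16 and Krt81 was not tested.

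**Figure D4:**
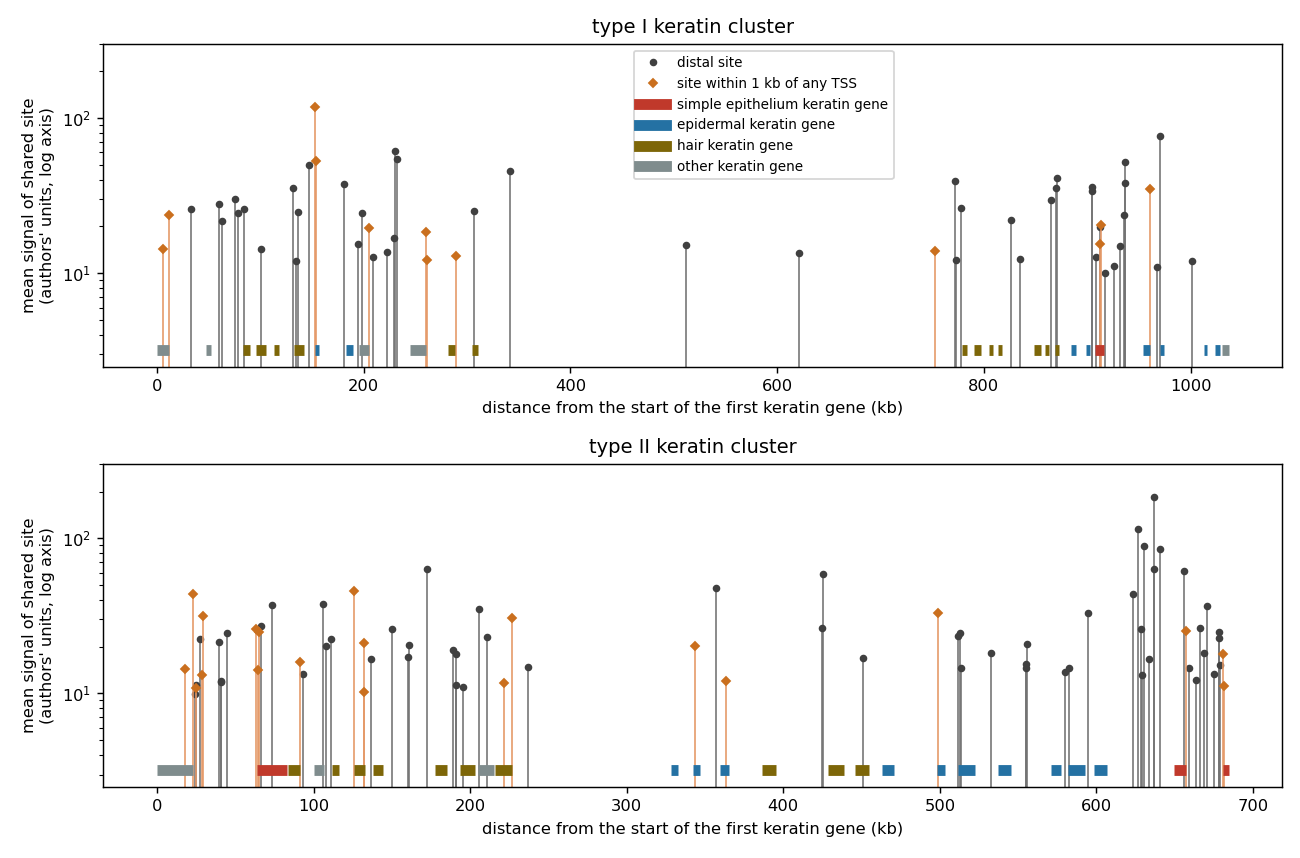
Mean signal over 2 replicates of every shared site in each keratin cluster (y axis, authors' units, log axis) against distance from the start of the first keratin gene (x axis, kb). Grey circles are distal sites, orange diamonds sites within 1 kb of any TSS, and coloured bars near the bottom are keratin genes by group. The type I cluster (top) is nearly empty across the Krtap gap, and the tallest sites of the type II cluster (bottom) stand just before Krt8, up to 183.

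The lists of related genes and of cell types set the keratins in context, and their counts stand beside the 71.8% of all protein-coding genes with a promoter peak in both replicates. Of the desmosome and keratin-linker genes, 15 of 19 had a promoter peak in both replicates, led by Jup (plakoglobin, 253 ± 32.4) and Dst (113 ± 3.28), with none at Dsc1 and Dsg1a, desmosomal cadherins of differentiated skin. Regulators of keratin genes had 18 of 20, led by Grhl1 (139 ± 1.503) and Klf4 (123 ± 22.5), while Foxn1 had none and Trp63, a regulator of basal keratinocytes, had 12.6 in replicate 1 alone. The other intermediate filament genes had 13 of 13, led by the lamins Lmna (189 ± 15.1) and Lmnb1 (172 ± 2.00). Kidney genes had 10 of 10, a count that lists of other cell types reached too and that therefore checks the labelled tissue only weakly, led by Wt1 (116 ± 7.54) and Pax2 (83.8 ± 3.93). Epidermis genes had 3 of 10, led by Ivl (24.7 ± 2.68) and Cdsn (10.4 ± 0.519), with none at Dsg3 and Flg. Urothelium genes had 4 of 5, led by Upk2 (71.1 ± 8.03) and Upk1a (46.6 ± 3.57), with none at Upk3b. Mesothelium had 1 of 4 (Msln, 14.7 ± 2.32; none at Muc16 and Upk3b), endothelium 3 of 3 (Kdr 63.6 ± 1.94, Cdh5 32.8 ± 3.97), leukocytes 1 of 2 (Spi1, 12.9 ± 1.56) and adrenal cortex 2 of 3 (Star 40.2 ± 0.442, Nr5a1 20.6 ± 1.05). Urothelial and ductal cells also express Krt7, Krt8, Krt18, Krt19 and Krt20, and their part in the peaks at these genes was not tested.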

How the data were processed

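DNase-seq was done on kidney of 0-day-old mice in 2 replicates. The authors deposited 1 peak list per replicate, made from 36-nt reads on assembly mm10 per the file headers, with 266133 peaks in replicate 1 and 257133 in replicate 2. The signal of each peak is the authors' deposited value, for which no scaling, aligner, caller, threshold or depth is stated (not given in the sources used here). Signal was used to rank peaks within a list, and was averaged and compared between the 2 lists without rescaling. Over the genes with a promoter peak in both replicates, the median log2 ratio of replicate 2 to replicate 1 was 0.125. SDs and fold differences between replicates include this offset. With no read counts, no precision per peak can be given. mm10 is the build of the GRCm38 genome used here.

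A gene's promoter signal was that of its strongest peak within 1 kb of any GENCODE M21 TSS. A shared site was a union of peaks overlapping by at least 1 bp that held a peak of both replicates, and it was distal when its centre lay over 1 kb from every TSS. Clusters were keratin genes with gaps of at most 500 kb. Percentiles of promoter signal are means over replicates among the genes with a promoter peak. Motifs were exact matches, and those searched in distal sites were chosen after the peaks had been seen. All 32851 RefSeq promoter windows equalled the genome, and 17 keratin genes had none in the table.

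The members, gene lists and groups were chosen with earlier results of these data known. The rule for named genes gave the 4 simple-epithelium keratins in full, every other keratin gene with its values or as one without a peak, the strongest 3 distal sites of each cluster and the strongest near each simple-epithelium keratin, and in each further list the 2 strongest genes and the first 2 by alphabet without a peak. With 1 group of 2 samples, values are per replicate or mean ± SD, and no p-value was computed. Other promoter windows, starts, thresholds, overlaps and distances and each replicate alone were tried. The counting steps were tested on simulated peaks. Python 3.11.15, numpy 2.4.6, pandas 2.3.3, numba 0.67.0 and matplotlib 3.10.9 were used.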

Additional observations from a re-analysis of the deposited data

How the results depend on the processing

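No paired analysis was possible because there is 1 group. The alternative that used the most 5′ start of a protein-coding transcript was chosen after seeing the data. In the settings run, no result changed direction. The count of keratin genes with a promoter peak in both replicates, 15, was 15 with windows of 500 bp, 19 with windows of 2 kb, 13 with the most 5′ start, whether of any or of a protein-coding transcript, 10 with peaks in the upper 50% of signal, and 15 without peaks within 1 kb of another protein-coding gene. With 1 replicate left out it ran from 16 to 17. With peaks in the upper 50% of signal, Krt18 lost its promoter peak, as did Krt20, Krt23, Krt39 and Krt87.

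The median promoter signal, 25.4, was 29.8 with windows of 2 kb and 31.7 with the upper 50%, and from 22.2 to 24.8 with 1 replicate left out. The difference in share between simple-epithelium keratins and epidermal and hair keratins, 82.9 points, was 73.2 with windows of 2 kb. With the upper 50% it was 62.8, and with 1 replicate left out it ran from 78.0 to 80.5. With either choice of the most 5′ start it was 87.8. For the most 5′ start of any transcript, the Krt19 peaks counted in it did not overlap between replicates.

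The median of 8 distal sites was 5 with the upper 50%, 7 with an overlap of at least 50% of both peaks, 4 with a window of 25 kb, 16 with 100 kb, and 9 with either replicate left out. The difference of 9 in median distal sites was 4.5 with the upper 50% and 14.5 with a window of 100 kb, and from 12.5 to 17 with 1 replicate left out. The type I density ratio, 0.683, was 0.706 with the upper 50%, 0.672 with an overlap of 50%, and from 0.647 to 0.652 with 1 replicate left out. The type II ratio of 1.44 ran from 1.32 to 1.58 with 1 replicate left out. The cause of these shifts was not tested. The unknown depth and threshold limit weak peaks, such as those of Krt15, Krt79 and Krt83, found in 1 replicate.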
